A study of Equus caballus with 19 samples.

Results

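The genes described here were 6 fibroblast growth factors (FGF2, FGF7, FGF9, FGF10, FGF18 and FGF19) and 3 of their receptors (FGFR1, FGFR2 and FGFR3), read out in equine tenocytes exposed to IL-1β. They were found by gene name in both tables of the series, which gave 9 rows of the 29196 in each table. The cells were wild-type adult tenocytes from the superficial digital flexor tendon, each line grown from a separate horse and seeded in 3D gels of bovine type 1 collagen. In the first batch, lines 1 to 5 were kept for 14 days as control or with 1 nM IL-1β (10 libraries). Lines 6 to 8 formed the second batch and were kept for 14 days as control, with IL-1β (1 nM), or with the same dose of IL-1β and IL1Ra at 100 ng/ml, the receptor antagonist that competes with IL-1β for its receptor (9 libraries). All groups therefore shared the expansion in serum, the collagen gel and the 14 days of culture, and each line gave 1 library per condition.

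FGFs are secreted ligands that bind receptor tyrosine kinases on the cell surface together with heparan sulfate chains, which are carried by core proteins such as syndecans and glypicans. The activated receptor recruits adaptors and the MAP kinase relay, and this pathway switches on ETS transcription factors and its own inhibitors, among them the Sprouty proteins and DUSP6. In tendon, FGF signalling is known for its part in the specification of tendon progenitors in the embryo and in the growth of tendon fibroblasts. FGF2 is a broad mitogen of fibroblasts, FGF7 and FGF10 are made by mesenchymal cells and act on the IIIb form of FGFR2, FGF9 and FGF18 act on bone and cartilage cells, and FGF19 is an endocrine FGF that needs a Klotho co-receptor.

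The values were normalised counts, and a difference is given as a log2 ratio of (normalised count + 1), a scale on which changes of low genes come out smaller than they are. The sums of normalised counts, with M for 1e6, were 43.4 to 49.2 M per library in the first batch and 25.0 to 34.6 M in the second. The batches were normalised separately, so levels were compared only within a batch. Values were not scaled by transcript length here, so levels were not compared between genes. The tendon gene COL1A1 was present in every library of the first batch, whereas TNMD, a late tenocyte marker, was listed at 0 in all 10. Of 12 tenocyte markers, 11 were in the tables, and their summed normalised counts were 1153000 to 1912000 in the control and 510400 to 996500 in the IL-1β libraries of the first batch. Of 6 leukocyte markers, 4 had a mean of at least 10 normalised counts in each group, and PTPRC and CD3E were at or near 0. The leukocyte sums were 320.2 to 2319 in control (median 340.3) and 548.5 to 3971 with IL-1β (median 763.6). The 4 endothelial markers summed to at most 84.7. The 4 epithelial markers summed to 1415 to 3915 in control and 31.4 to 546 with IL-1β, with EPCAM listed at 0 in every control library. Of these 4, only 1 had a mean of at least 10 in each group. The sums of the 3 chondrocyte markers went from 6344 to 40690 in control to 31.8 to 885 with IL-1β. Of these 3, 1 had a mean of at least 10 in control and 2 with IL-1β, so the sum does not show that each marker fell. The 4 pericyte or smooth muscle markers summed to 34240 to 122200 in control and 14110 to 33950 with IL-1β. In the same order, the 2 adipocyte markers found summed to 79.8 to 2739 and 295 to 2310. The part of these markers in the results was not tested, and in such bulk libraries fewer cells of a type and less RNA per cell cannot be told apart.

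FGF10, FGF19, FGFR1 and FGFR2 were lower with IL-1β than in the control of the same line in 8 of 8 lines. FGF2 was lower in 6 of 8 lines, FGF9 in 5 (higher in 2), FGF7 and FGF18 in 4 of 8, and FGFR3 was higher in 6 of 8. The 9 genes were picked with these contrasts in view, so their values are a description and carry no p. All 9 passed the filter on low values in both batches.

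FGF10, a mesenchymal ligand of the IIIb form of FGFR2, had 8498, 5764, 2592, 5629 and 6928 normalised counts in the controls of lines 1 to 5. With IL-1β the same lines had 1556, 1433, 112, 1325 and 1664. The highest IL-1β library was below the lowest control, so the groups did not overlap, and line 3 was lowest in both conditions. The means were 5882 ± 2170.4 and 1218 ± 631 (SD, n = 5), a 4.83-fold lower mean with IL-1β, and the within-line log2 ratio was −2.62 ± 1.07 (SD, n = 5) with a range of −4.52 to −2.01. The FGF10 controls of lines 6, 7 and 8, in the second batch, had 1063, 7002 and 7961 normalised counts and the IL-1β libraries 114, 559 and 496. Here too no IL-1β library reached a control, with a within-line log2 ratio of −3.62 ± 0.40 (SD, n = 3) that lay between −4.00 and −3.21.

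FGF19, the endocrine member of the group, had 103, 98.1, 149, 165 and 176 normalised counts in the controls of lines 1 to 5. With IL-1β it was listed at 0 in lines 1, 2, 4 and 5 and at 1.04 in line 3. The control libraries of this batch thus lay close together and every IL-1β library lay at or near 0. A listed 0 can be a failed estimate (the housekeeping gene EIF2S2 was listed at 0 in 3 of these 10 libraries), so no fold is given. The fitted log2 difference of FGF19 depended on the pseudocount, at −6.87 with 1, −7.75 with 0.5 and −4.75 with 5. Lines 6, 7 and 8 of the second batch were less alike. FGF19 had 351, 21.0 and 1.73 normalised counts in their controls and 3.08, 2.15 and 0 with IL-1β. The control of line 6 stood far above those of lines 7 and 8, and the control of line 8 was already under the highest IL-1β library.

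FGF9, a ligand known from cartilage and lung, stayed at or under 70.7 normalised counts in the first batch. Its controls in lines 1 to 5 had 3.54, 24.4, 69.7, 70.7 and 14.2 normalised counts, and the IL-1β libraries had 6.07, 10.7, 8.30, 2.01 and 1.94. It was lower in 4 of 5 lines and higher in line 1, and the groups overlapped. FGF9 in the second batch was listed at 0 in the controls of lines 7 and 8, where IL-1β gave 1.14 and 0, while line 6 had 186 in control and 12.0 with IL-1β.

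FGF2, the broad fibroblast mitogen, had 652, 477, 117, 209 and 269 normalised counts in the controls of lines 1 to 5 and 250.3, 218, 168, 231 and 195 with IL-1β. The control values spanned a wider range than the IL-1β values and enclosed them, and the within-line log2 ratio was −0.46 ± 0.81 (SD, n = 5). The FGF2 controls of the second batch (lines 6, 7 and 8) had 148, 905 and 2681 normalised counts and the IL-1β libraries 122, 133 and 200.1. The within-line log2 ratios there were −0.28, −2.75 and −3.74, so the difference was small in line 6 and larger in lines 7 and 8, whose controls were the highest of the batch.

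FGF7, which like FGF10 acts on epithelial receptors, stood at 28901 to 55636 normalised counts in the first-batch controls (median 42486) and 26085 to 46541 with IL-1β (median 41995). The within-line log2 ratio was −0.08 ± 0.50 (SD, n = 5), higher in 3 and lower in 2 lines. FGF7 in lines 6, 7 and 8 had 12569.9, 46571 and 39359 in control and 26879.9, 14493 and 27064 with IL-1β, higher in line 6 and lower in lines 7 and 8. FGF18, a growth factor of cartilage, had 115, 412, 479, 260.3 and 141 normalised counts in the first-batch controls and 671, 509.9, 147, 150.3 and 114 with IL-1β. FGF18 was higher in lines 1 and 2 and lower in lines 3, 4 and 5, with a within-line log2 ratio of 0.01 ± 1.59 (SD, n = 5). Neither ligand had a shared direction across the lines, in contrast to FGF10 in the same libraries.

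**Figure D1:**
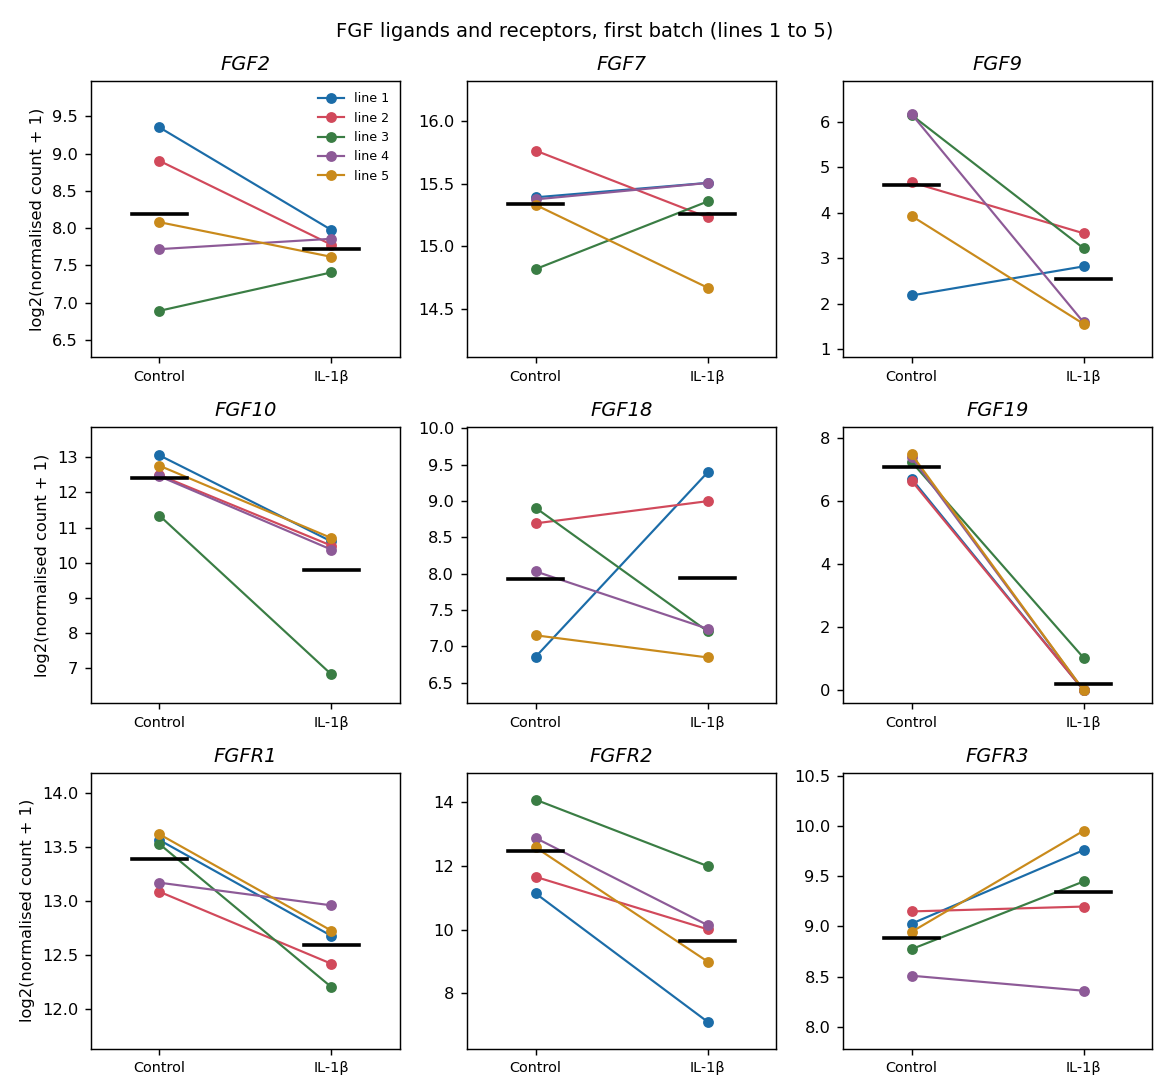
Levels of the 9 FGF ligands and receptors in the first batch, as log2(normalised count + 1) on the y axis for control and IL-1β on the x axis, with 1 point per library, a line joining the libraries of each of lines 1 to 5 and a black bar at the mean. FGF10, FGF19, FGFR1 and FGFR2 slope down in 5 of 5 lines, whereas the lines cross for FGF2, FGF7 and FGF18.

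Among the receptors, FGFR2, which in its splice forms binds FGF7 and FGF10 or a wider set of FGFs, had 2247, 3219, 17198, 7491 and 6104 normalised counts in the controls of lines 1 to 5. With IL-1β, FGFR2 had 137, 1030.4, 4067, 1128 and 511. Every line was lower with IL-1β, but the groups overlapped, because the IL-1β library of line 3 stood above the controls of lines 1 and 2. The means were 7252 ± 5950.2 and 1375 ± 1558 (SD, n = 5), 5.28-fold lower with IL-1β, and the within-line log2 ratio was −2.81 ± 0.99 (SD, n = 5) with a range of −4.02 to −1.64. FGFR2 in the second batch had 4398, 1815 and 361 in the controls of lines 6, 7 and 8 and 3675, 144 and 40.1 with IL-1β. The within-line log2 ratio was −0.26 in line 6 but −3.64 and −3.14 in lines 7 and 8, so line 6 kept nearly its control level.

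FGFR1, the main receptor of mesenchymal cells, had 12126, 8703, 11818, 9225 and 12583 normalised counts in the controls of lines 1 to 5 and 6556, 5483, 4721, 7977 and 6781 with IL-1β. The groups did not overlap, and the means of 10891 ± 1789.6 and 6303.5 ± 1252 (SD, n = 5) differed 1.73-fold. The within-line log2 ratio of FGFR1 was −0.80 ± 0.41 (SD, n = 5) in the first batch and −0.68 ± 0.20 (SD, n = 3) in the second, where the controls had 6194, 7244 and 7248 and the IL-1β libraries 3709, 4031 and 5268. The difference was smaller than that of FGF10 or FGFR2 but was seen in every line.

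FGFR3, a receptor known for its restraint of cartilage growth, had 521, 567, 437, 363 and 493 normalised counts in the controls of lines 1 to 5 and 868, 587, 698, 327 and 993 with IL-1β. It was higher in 4 of 5 lines and lower in line 4, with a within-line log2 ratio of 0.46 ± 0.49 (SD, n = 5) and overlapping groups. FGFR3 in the second batch had 288, 258 and 218 in control and 323, 598 and 188 with IL-1β, a within-line log2 ratio of 0.39 ± 0.74 (SD, n = 3). The difference was no larger than its spread between lines in either batch.

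A gene is counted as called here where limma gave a Benjamini-Hochberg adjusted p under 0.05 over all genes tested and a log2 fold change of at least 1 in size. In the first batch, 3 of the 9 genes were called, all lower (FGF10, FGF19 and FGFR2), beside 12.8% of the 14717 genes tested and 7.90% called in the lower direction. With the line as a block the count was also 3, beside 16.2% of all genes. FGF19 passed the filter on low values through its 5 control libraries alone, and a gene kept this way had to differ. Without line 4 or without line 5 only FGF19 was called, without line 2 FGFR2 was lost, and without line 1 FGF9 was added, which gave 1 to 4 genes. Groups did not overlap for 3 of the 9 (FGF10, FGF19 and FGFR1, all lower), beside 19.5% of all genes and 10.2% in the lower direction. The median log2 fold change of the 9 was −0.80, beside −0.0033 over all genes tested. These contrasts were in view when the genes were picked, so nothing is read from the counts.

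In the second batch, 0 of the 9 were called between IL-1β and control with limma, beside 0.341% of the 16702 genes tested, and 1 of the 9 had an unadjusted p under 0.05, beside 11.4% of all genes. With the line as a block FGF10 was called (lower), beside 5.18% of all genes and 2.59% in the lower direction, and without line 6 FGF10 and FGF2 were called. Groups did not overlap for 2 of the 9, FGF10 and FGFR1 (both lower), beside 16.4% of all genes and 7.61% in the lower direction. The median log2 fold change of the 9 was −0.92, beside −0.0084 over all genes. Nothing is read from these counts either, since the genes were picked with this contrast in view.

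IL1Ra was added to 3 lines only. Both comparisons with control in the second batch share the same 3 control libraries, so the values are set side by side. With IL-1β and IL1Ra together, FGF10 in lines 6, 7 and 8 stood at 595, 2867 and 2852 normalised counts, in each line above its IL-1β library and below its control. All 3 libraries with IL1Ra were higher than all 3 with IL-1β alone, and the within-line log2 ratio to IL-1β alone was 2.42 ± 0.09 (SD, n = 3), between 2.36 and 2.52. Against control the log2 ratio was −0.84, −1.29 and −1.48, so 26.0%, 35.4% and 37.0% of the IL-1β difference remained on the log2 scale, a mean of 32.8% ± 5.9 (SD, n = 3).

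The other ligands were less uniform with IL1Ra. FGF2 with IL1Ra present stood at 116, 999 and 1424 normalised counts, against 122, 133 and 200.1 with IL-1β alone. Line 7 was near its control and line 8 was 0.91 below its control on the log2 scale, while line 6 was below both its control and its IL-1β library. FGF19 had 136 in line 6 and was listed at 0 in lines 7 and 8, against 3.08, 2.15 and 0 with IL-1β alone. FGF9 had 101, 0.965 and 4.31, so a level above 10 was seen only in line 6. FGF7 had 26992, 38815 and 43551 and was higher than with IL-1β alone in 3 of 3 lines, though by only 0.006 on the log2 scale in line 6. FGF18 had 474, 130.1 and 19.1 and was higher than with IL-1β alone in line 6 and lower in lines 7 and 8.

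Among the receptors, FGFR1 with IL1Ra present stood at 6791, 2926 and 7614 normalised counts. Lines 6 and 8 were slightly above their controls, by 0.13 and 0.07 on the log2 scale, but line 7 was below both its control and its IL-1β library, with a log2 ratio of −1.31 to control. FGFR2 had 4763, 172 and 132 with IL1Ra, above IL-1β alone in 3 of 3 lines by 0.37, 0.25 and 1.70 on the log2 scale, and its log2 ratio to control was still −3.39 in line 7. FGFR3 had 245, 312 and 102 with IL1Ra and was lower than with IL-1β alone in 3 of 3 lines, with a within-line log2 ratio of −0.74 ± 0.29 (SD, n = 3).

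Between IL-1β + IL1Ra and IL-1β alone, 0 of the 9 genes were called by limma, beside 0 of 16702 genes in all (464 with an unadjusted p under 0.05, among them 1 of the 9). With the line as a block, FGF10 was the 1 gene called of the 16702, which is 0.00599%, and without line 6 it was 1 of 10 genes called. FGF10 was picked with these libraries in view, so its call is a description and nothing is read from it. Groups did not overlap for 1 of the 9, FGF10, beside 6.47% of all genes and 3.13% in the higher direction. Between IL-1β + IL1Ra and control, 0 of the 9 were called with or without the block, beside 0.0120% and 0.251% of all genes, and 0 of the 9 had groups that did not overlap, beside 11.8%. The count at an unadjusted p under 0.05 was 0 of 9 there, and 2 of 9 with the block, beside 5.68% and 13.4% of all genes. The median log2 fold change of the 9 was −0.37 against control and 0.78 against IL-1β alone, beside 0.0095 and 0.0088 over all genes.

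**Figure D2:**
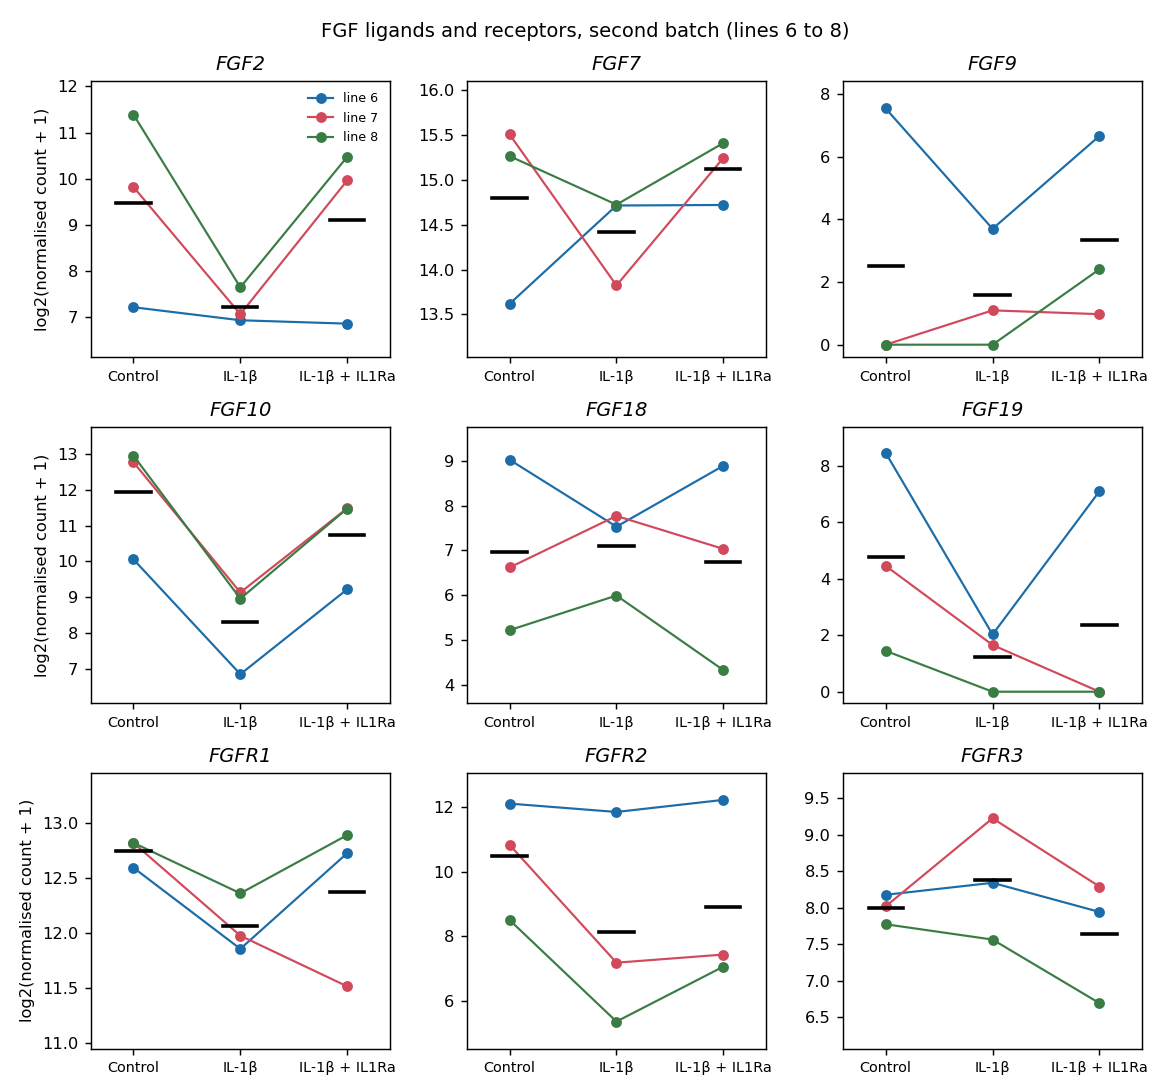
Levels of the 9 FGF ligands and receptors in the second batch, as log2(normalised count + 1) on the y axis for control, IL-1β and IL-1β + IL1Ra on the x axis, with 1 point per library, a line joining the libraries of each of lines 6 to 8 and a black bar at the mean. FGF10 shows the same V shape in all 3 lines, while FGFR2 is nearly level in line 6 and FGF9 and FGF19 are high in line 6 only.

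**Figure D3:**
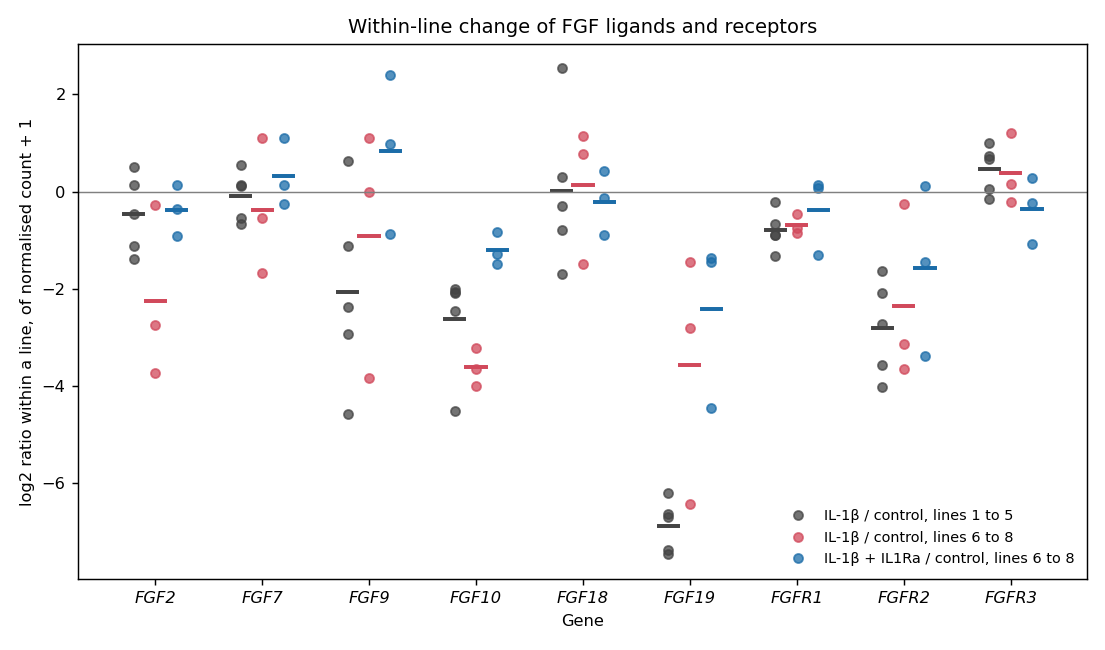
Within-line log2 ratios of (normalised count + 1) to control on the y axis for each of the 9 genes on the x axis, with 1 point per line for IL-1β in lines 1 to 5, IL-1β in lines 6 to 8 and IL-1β + IL1Ra in lines 6 to 8, and a bar at each mean. All points of FGF10, FGF19, FGFR1 and FGFR2 with IL-1β alone lie below 0, and the FGF10 points with IL1Ra lie between −1.48 and −0.84. The FGF19 and FGF9 points rest on libraries listed at or near 0, so their size depends on the added 1.

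The lines differed in their control levels of these genes, and line 6 stood apart in the second batch. It had the highest control values of FGF9, FGF18, FGF19, FGFR2 and FGFR3 and the lowest of FGF2, FGF7, FGF10 and FGFR1. The related ligand FGF16 had 229 normalised counts in the control of line 6 and was listed at 0 in lines 7 and 8 in every condition, whereas FGF1 had 15.97 there against 2550.3 and 1874 in lines 7 and 8. The tendon markers SCX, MKX and COMP were also highest in the control of line 6, with SCX at 4720 against 266 and 105, MKX at 4059 against 151 and 11.5, and COMP at 51392 against 1069 and 131. The sums of the tenocyte list in the second batch were 305800 to 958400 in control, 384100 to 597600 with IL-1β and 177500 to 934500 with IL-1β + IL1Ra. In the same order the leukocyte sums were 510.2 to 1554, 960.4 to 3389 and 1006 to 2342, the endothelial sums were at most 45.6, the epithelial sums were at most 110.5, and the chondrocyte sums were 170.8 to 11870, 6.78 to 246 and 23.0 to 5251. Of the 4 epithelial markers, 1 had a mean of at least 10 in each condition, and of the 3 chondrocyte markers 1, 2 and 1 did. The pericyte or smooth muscle sums were 9449 to 62930, 10960 to 23880 and 3102 to 24050, and the adipocyte sums 51.2 to 6070, 127 to 1666 and 70.6 to 1727. In the first batch, line 3 had the highest control values of FGFR2 and the lowest of FGF2, FGF7 and FGF10, and it also had the highest SCX (2110.1), MKX (4654) and COMP (104390). SCX, MKX and COMP are only part of the 11 tenocyte markers found, and the others are not given by line, so no line is ranked as more tendon-like. How far the line differences bear on the response of the FGF genes was not tested.

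Some members had a mean within-line ratio of at least 1 in size and of 1 sign in both batches. Their likeness to other genes was taken as the root mean square difference over the 8 within-line log2 ratios of IL-1β to control. The 3 genes with the most similar ratios were listed for each, leaving out genes with LOC names. For FGF10 they were CALB2 (0.619), EXOC6 (0.784) and CCDC158 (0.785), against a median of 3.15 over 12357 genes. For FGFR2 they were PPL (0.517), TINAGL1 (0.627) and TMEM91 (0.714), against a median of 2.91. For FGF19 they were LMCD1 (0.886), CRABP1 (1.28) and PKP1 (1.53), against a median of 6.01. The FGF19 ratios themselves ranged from −7.47 to −1.45. Each pair shares its libraries and the ratios are 8 in number. The closest of 12357 genes must lie below the median of all, so nothing is read from that contrast.

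Of the other 66 pathway genes found in the tables, from lists of ligands, intracellular homologous factors, receptors, heparan sulfate core proteins, adaptors and feedback genes, 53 of the first batch had levels high enough to be tested. There 17 were called between IL-1β and control (limma, adjusted over all genes), 7 higher and 10 lower, which is 32.1% beside 12.8% of all genes tested. The 17 include GPC3, which passed the filter through its controls alone. The lists were also chosen with earlier results of these data known, so nothing is read from this share. With a filter of 50 normalised counts in place of 10, 7 of the 17 (FGF5, FGF13, FGF21, FGF22, FGFR4, GPC3 and SPRY3) were too low to be tested. The median log2 fold change of the 53 was 0.03, beside −0.0033 over all genes. Of 54 tested in the second batch, 1 was called (1.85%, beside 0.341% of all genes) and 6 with the line as a block. With IL1Ra, 0 of the 54 were called by limma against control and 0 against IL-1β alone, with or without the block. At an unadjusted p under 0.05 there were 4 and 3 of 54, beside 5.68% and 2.78% of all genes, and 11 and 9 with the block, beside 13.4% and 8.38%.

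Among 5 further ligands tested in the first batch, 3 were called, all lower, beside 7.90% of all genes tested. Nothing is read from this count. FGF21, a metabolic hormone of the same endocrine branch as FGF19, had 37.4 to 96.0 normalised counts in the controls and 0.989 to 10.8 with IL-1β, with a log2 fold change of −4.11 ± 0.54 (SE, n = 5, limma adjusted p = 0.000497). FGF5, known as a brake on hair growth, had 63.4, 87.4, 544, 31.3 and 36.8 in the controls and was listed at 0, 0, 49.0, 0.924 and 0 with IL-1β (log2 fold change −5.05, limma adjusted p = 0.00972), a size that moved to −5.72 and −3.40 with pseudocounts of 0.5 and 5. FGF22 had 14.9 to 45.2 in control and 6.23 to 14.9 with IL-1β, with a log2 fold change of −1.31 ± 0.37 (SE, n = 5, limma adjusted p = 0.0231), and its call was lost without line 1, 2, 4 or 5, with adjusted p of 0.0562, 0.0676, 0.0904 and 0.0616. With all lines kept and the line as a block, the limma adjusted p of FGF22 was 0.00709. FGF1 and FGF16 did not pass, with log2 fold changes of 0.97 and −1.85 and limma adjusted p of 0.404 and 0.153. None of the 4 further ligands tested in the second batch passed in limma, with an adjusted p of 0.552 for FGF21, 0.950 for FGF22, 0.969 for FGF16 and 0.995 for FGF1, and 0 of the 4 had an unadjusted p under 0.05.

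Of the homologous factors, which stay inside the cell and act on sodium channels, FGF12 and FGF13 moved in opposite directions in the first batch. FGF12 had 986, 373, 118, 133 and 179 normalised counts in the controls of lines 1 to 5 and 4274, 2655, 4539, 1616 and 1861 with IL-1β, so every IL-1β library was above every control. It rose by 3.43 ± 0.56 on the log2 scale (SE, n = 5, limma adjusted p = 0.00177). FGF12 in the second batch had 7.73, 511 and 462 in control, 759.9, 2916 and 1683 with IL-1β and 54.1, 1182 and 835 with IL-1β + IL1Ra. Its log2 fold change with IL-1β there was 3.61 (limma adjusted p = 0.475, 0.0400 with the line as a block), and without line 6 it was 2.19 (limma adjusted p = 0.0360). FGF13 in the first batch had a log2 fold change of −2.34 ± 0.62 (SE, n = 5, limma adjusted p = 0.0183), from 8.37 to 55.9 normalised counts in control to 2.06 to 17.0 with IL-1β. The FGF13 call was lost without line 1, 2 or 5, with adjusted p of 0.0670, 0.0763 and 0.0775, and FGF11 did not pass, with a log2 fold change of −0.12 and adjusted p = 0.791. With all lines kept and the line as a block, the limma adjusted p of FGF13 was 0.00486.

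Of the receptors outside the 9, FGFR4, a receptor used by FGF19, had 159.9, 65.8, 32.0, 50.1 and 50.3 normalised counts in the first-batch controls and 15.6, 29.0, 14.7, 10.3 and 31.0 with IL-1β. The groups did not overlap, and FGFR4 fell by 1.67 ± 0.46 on the log2 scale (SE, n = 5, limma adjusted p = 0.0217). Without line 1, 2 or 4 its adjusted p was 0.0672, 0.0504 and 0.0708. With all lines kept and the line as a block, its limma adjusted p was 0.0174. FGFRL1, a receptor without a kinase domain, had a log2 fold change of −0.59 and adjusted p = 0.0954. Lines 6, 7 and 8 each had less FGFR4 with IL-1β than in control (log2 fold change −2.49, limma adjusted p = 0.502, 0.0883 with the line as a block). The Klotho co-receptors were scarce. KL reached at most 15.0 normalised counts and KLB, the co-receptor of FGF19 and FGF21, at most 4.83 in any library, so neither entered the tests. The carrier protein FGFBP3 was tested in the second batch, with a log2 fold change of 0.42 (limma adjusted p = 0.910).

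Of the heparan sulfate core proteins, 6 of 9 tested were called in the first batch, 1 higher and 5 lower (among them GPC3, kept through its controls alone). Over all genes tested, 12.8% were called and 7.90% were called lower. The lists were chosen with earlier results of these data known, so nothing is read from this count. SDC4, the syndecan of focal adhesions, had 3890.3 to 7305 normalised counts in the controls and 18570.2 to 25170.4 with IL-1β and rose by 2.00 ± 0.16 on the log2 scale (SE, n = 5, limma adjusted p = 3.31e-05). SDC4 in the second batch had 6318, 4198 and 4139 in control, 27666, 17275 and 25586 with IL-1β and 11978, 13032 and 8031 with IL-1β + IL1Ra, with the IL-1β group above both others without overlap. It was the 1 pathway gene that passed there without the line as a block (log2 fold change 2.27, limma adjusted p = 0.0275). The call was lost without line 7 or 8 (adjusted p = 0.339 and 0.673) or when only control and IL-1β libraries were fitted (adjusted p = 0.0598). With all lines kept and the line as a block, the limma adjusted p of SDC4 was 0.0069.

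Those that fell in the first batch were SDC3 with a log2 fold change of −3.12 ± 0.35 (limma adjusted p = 0.000227), GPC1 with −1.45 ± 0.09, GPC4 with −2.07 ± 0.42, GPC3 with −4.56 ± 0.88 and HSPG2, the basement membrane proteoglycan perlecan, with −1.01 ± 0.22 (SE, n = 5). GPC1, a lipid-anchored glypican, was the most uniform of them, with 9902 to 12621 normalised counts in the controls and 3790.4 to 4429 with IL-1β. GPC3 had 12.9 to 298 in control and at most 7.05 with IL-1β, where lines 2 and 3 were listed at 0, so its size depends on the pseudocount. It passed the filter of 10 normalised counts through its controls alone, so it had to differ, and nothing is read from its call. HSPG2 was not called without line 3 or 5, where its log2 fold change was −0.79 and −0.96, nor after centring on the median of all genes (−0.99). SDC3 was also called in the second batch with the line as a block (log2 fold change −2.22, limma adjusted p = 0.0240, against 0.612 without the block). SDC1 passed on its limma adjusted p alone (0.00198, first batch), since its log2 fold change of 0.86 was short of the size required.

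**Figure D4:**
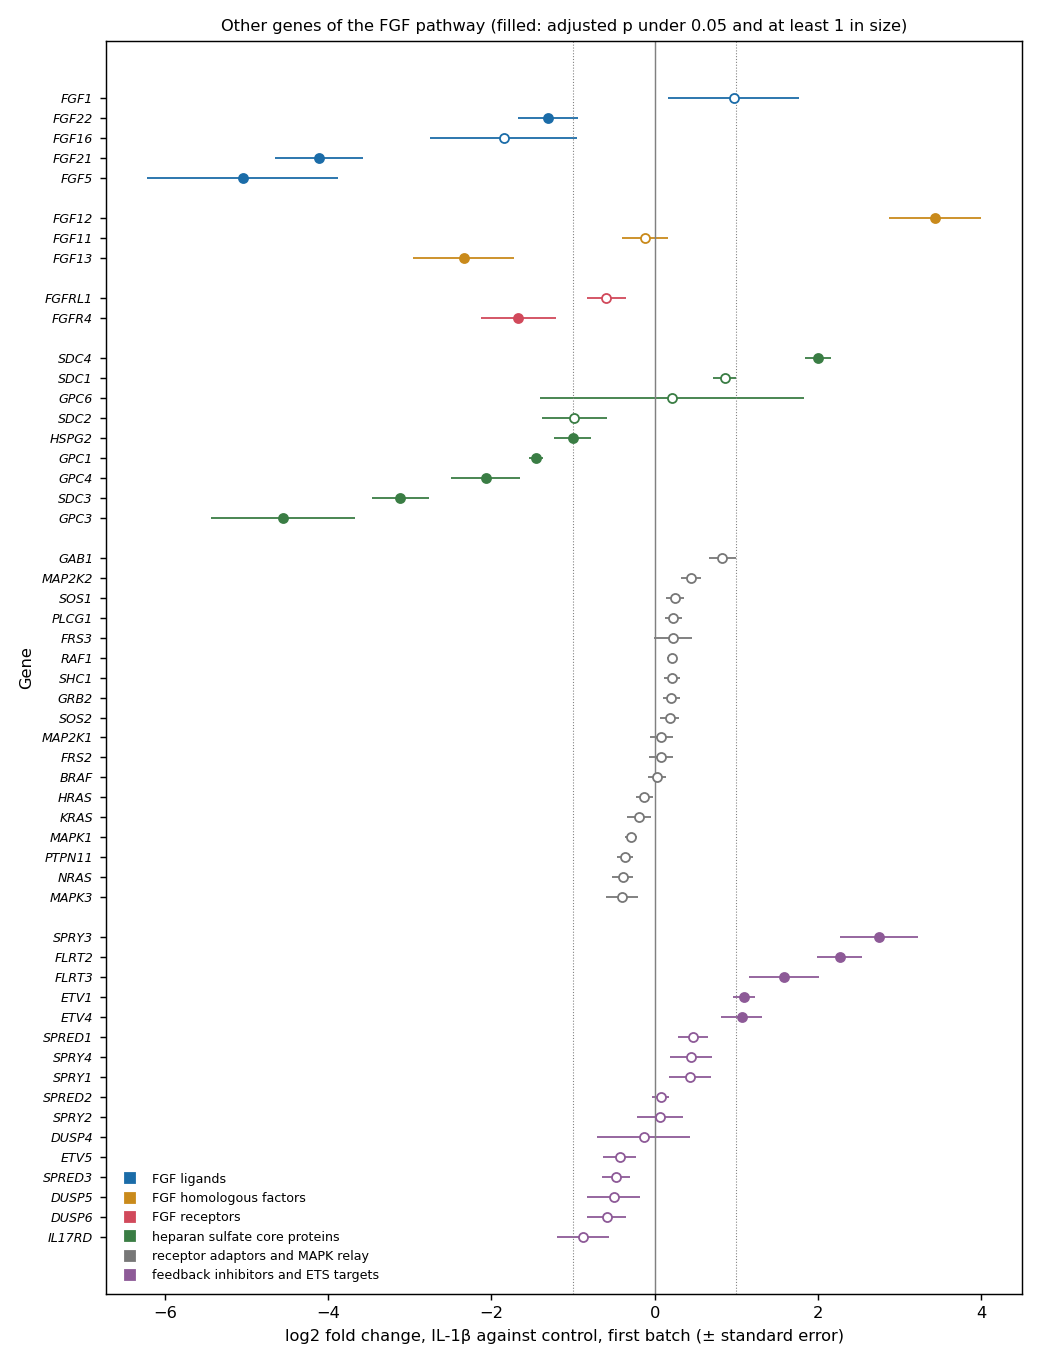
Log2 fold changes between IL-1β and control libraries of the first batch (x axis, ± standard error from limma, 5 libraries per group) for the 53 other pathway genes tested (y axis), grouped and coloured by list. Filled points were called and open points were not, and dotted lines mark a log2 fold change of 1 in size. The 18 adaptor and relay genes stay between the dotted lines, whereas ligands, homologous factors and core proteins reach from −5.05 (FGF5) to 3.43 (FGF12).

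None of the 18 adaptor and MAP kinase relay genes was called in the first batch by limma, and 8 had an unadjusted p under 0.05, beside 39.5% of all genes tested. Of these, 6 had an adjusted p under 0.05 with a log2 fold change under 1 in size, 3 higher and 3 lower. An adjusted p under 0.05 at any size was reached by 4078 of the 14717 genes tested. The list that runs from feedback inhibitors to ETS targets had 5 of 16 called, all higher, beside 12.8% of all genes in either direction. With the line as a block, 11 of the 16 had a limma adjusted p under 0.05, 6 higher and 5 lower, of which 6 were under 1 in size. The share of all genes at that rule is not given here, but 51.9% had an unadjusted p under 0.05 with the block. Nothing is read from these counts. ETV1 and ETV4, ETS transcription factors, rose by 1.09 ± 0.14 and 1.07 ± 0.25 on the log2 scale (SE, n = 5, limma adjusted p = 0.000434 and 0.00987). Without line 4 the log2 fold change was 0.98 for ETV1 and 0.88 for ETV4, so neither was called. SPRY3, a Sprouty protein, rose by 2.75 ± 0.48 (SE, limma adjusted p = 0.00233), from 5.60 to 20.9 normalised counts in control to 32.5 to 174 with IL-1β.

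FLRT2 and FLRT3, the other two genes of that list that rose, are membrane proteins with leucine-rich repeats that bind FGF receptors and guidance receptors and are not inhibitors of the pathway. FLRT2 rose by 2.27 ± 0.28 on the log2 scale (SE, n = 5, limma adjusted p = 0.000331), from 193 to 552 normalised counts in control to 1171 to 1814 with IL-1β. FLRT3 rose by 1.58 ± 0.43 (SE, n = 5, limma adjusted p = 0.0196), which was lost without line 1 or 2 (adjusted p = 0.0732 and 0.0748). With all lines kept and the line as a block, the limma adjusted p of FLRT3 was 0.00177. FLRT2 in the second batch had 247, 11.1 and 43.9 in control, 333 to 1932 with IL-1β and 747, 108 and 437 with IL-1β + IL1Ra. FLRT2, FLRT3 and SPRY3 were called there with the line as a block, with limma adjusted p of 0.00487, 0.0460 and 0.00912, against 0.213, 0.211 and 0.0818 without it.

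DUSP6, IL17RD, SPRY2, SPRY4 and ETV5, of the same list of feedback inhibitors and ETS targets, were not called, and they are named here after their values were seen. DUSP6, a phosphatase that removes the activating phosphates of ERK, was below its control in all 8 lines. Its log2 fold change was −0.59 and −1.59 in the first and second batch (limma adjusted p = 0.0932 and 0.326, and 0.0133 and 0.0535 with the line as a block). IL17RD was also below its control in all 8 lines. The log2 fold change of IL17RD was −0.88 and −0.90 (limma adjusted p = 0.0633 and 0.61, and 0.00322 and 0.0898 with the block). ETV5, an ETS factor like ETV1 and ETV4, had log2 fold changes of −0.43 and −0.02 (limma adjusted p = 0.145 and 0.992, and 0.0260 and 0.971 with the block). The Sprouty genes SPRY2 and SPRY4 had log2 fold changes of 0.07 and 0.45 in the first batch and −0.19 and −0.46 in the second, with limma adjusted p of 0.222 to 0.964 (0.104 to 0.741 with the block).

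Many FGF ligands were hardly detected. Of the 18 ligands in the list, 7 stayed under 10 normalised counts in every library of a batch. FGF3, FGF4 and FGF6 were listed at 0 in all 19 libraries, and FGF8, FGF17, FGF20 and FGF23 stayed under 10. The homologous factor FGF14 also stayed under 10. A ligand at this level was too low to be tested here, which does not show that it is absent.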

How the data were processed

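RNA was sequenced from 19 libraries of equine tenocytes (8 lines). The signal values used here were deposited by the authors as DESeq2-normalised counts: reads were assigned to EquCab3.0 transcripts with Salmon, summed to genes and divided by DESeq2 size factors within each batch. The submitters' processing notes name DESeq2 1.36 and R 4.2.1. Each batch was a table of 29196 rows, of which 4 rows with repeated names were left out. No column was left unmapped and no libraries were identical. Of 29192 names, 23397 matched the RefSeq table, made on a later assembly of the horse genome, including all 9 members, so no coordinates are given. Only part of the low values were near whole reads (tolerance 0.1 of a read, values below 10), so no count model was fitted. FGFBP1, FGFBP2, COL3A1 and FABP4 were not analysed here.

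Genes that reached 10 normalised counts in 5 or more libraries of the first batch, or in 3 or more of the second, were fitted on log2(normalised count + 1) with limma 3.58.1 in R 4.3.3 (lmFit, eBayes with trend), and p-values were adjusted by Benjamini-Hochberg over all genes of a comparison. In the second batch the 3 conditions entered 1 fit. Called means an adjusted p under 0.05 and a log2 fold change of at least 1 in size. The fit was also run on simulated data without line differences, a run that does not bear on paired libraries. Line numbers pair the libraries, since libraries of a line come from the same horse. Deviations from the condition means correlated at 0.35 to 0.578 (5 pairs) and 0.535 to 0.794 (9 pairs) within lines, and at −0.356 to 0.288 (20 pairs) and −0.625 to 0.249 (18 pairs) between lines. The fit without the line as a block is reported and the block is an alternative, beside other pseudocounts, filters and scalings, a fit without trend, 2 conditions only, linear means, the adjusted p alone and leaving out each line. The reported fit does not use the pairing, and leaving out a line was run without the block.

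The members and gene lists were chosen with earlier results of these data known. Named were the 9 members, other ligands, homologous factors and receptors that passed the filter, other pathway genes called in any comparison with or without the block, and the 3 genes most like each member with a mean within-line ratio of at least 1 in size in both batches. The number of lines limits precision, and intervals of counts were not derived from normalised values.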

Additional observations from a re-analysis of the deposited data

Results flagged for a closer look

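For each member, the 5 control and the 5 IL-1β libraries of the first batch were searched for a single library far from the others, by the gap to its nearest neighbour as a share of the group's range (above 0.71 for 5 libraries). Of 18 groups searched, 3 had such a library. The cutoff flags about 1 in 20 groups where values are normally distributed and groups independent. These groups shared their libraries and held untransformed counts, so the number of flags is not set against that rate. All 3 flagged libraries were the IL-1β library of line 3. FGF10 had its lowest IL-1β value there, 112.226 normalised counts, with a gap of 0.781 of the range. FGF19 had its highest, 1.03907, where the other 4 libraries were listed at 0, which is a gap of the whole range on values near 0. FGFR2 had its highest, 4067.38, with a gap of 0.748. The control library of line 3 was also the lowest for FGF10 (2592) and the highest for FGFR2 (17198), and FGF1, a ligand outside the members, was lowest there too (82.1). Without line 3 the log2 fold change of FGF10 was −2.15, that of FGFR2 −2.99 and that of FGF19 −7.04.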

How the results depend on the processing

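Over the alternatives tried, 322 of 326 member values moved by less than the spread between lines, and FGF10, FGF19, FGFR1 and FGFR2 stayed lower with IL-1β than in control in both batches. Leaving out a line cannot move a mean by more than that spread, and fitting 2 conditions only leaves it unchanged. These settings could therefore not give another outcome. Nor could leaving out a line turn these genes, which were lower in every line. FGF7, FGF18 and FGFR3 changed sign in some settings, and for IL-1β + IL1Ra against control so did FGF9 (−0.79 with linear means, 0.84 as reported) and FGFR1 (0.10 without line 7, −0.37 as reported). Scaling to library sums moved the median of all genes in the second batch to −0.19 for IL-1β against control and to 0.11 for IL-1β + IL1Ra against IL-1β, and put FGF10 at −3.80 and 2.52. For IL-1β against control in the second batch, linear means put FGF9 at −3.55 (−0.92 as reported) and FGFR2 at −0.77 (−2.35 as reported). For the other pathway genes 762 of 815 values kept their direction and side of the threshold. Read depth is unknown, since the values were already normalised, so no limit from depth was derived.

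With the tenocyte line as a block, the genes called rose from 57 to 865 for IL-1β against control in the second batch, from 2 to 42 for IL-1β + IL1Ra against control and from 0 to 1 for IL-1β + IL1Ra against IL-1β, the members called from 0 to 1, 0 and 1, and the other pathway genes called from 1 to 6 in the first of these. In the first batch the block called 2386 genes against 1885 and no different count of members or pathway genes. In the first batch the adjusted p alone gave 4078 genes, and a filter of 50 normalised counts left 10 pathway genes called of the 17, because the other 7 were no longer tested. IL-1β against control in the second batch gave 34 genes without trend and 32 with 2 conditions only, where 0 pathway genes were called. IL-1β + IL1Ra against control gave 1 gene with scaling to library sums and 0 with 2 conditions only. The cause of the other changes was not tested.

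Leaving out 1 line gave 1 to 4 members and 1374 to 1729 genes called in the first batch (3 and 1885 with all lines). The same in the second batch gave 0 to 364 genes, 0 to 2 members and 0 to 3 pathway genes for IL-1β against control, 0 to 63 genes for IL-1β + IL1Ra against control, and 0 to 10 genes and 0 to 1 members against IL-1β alone, with the highest of each without line 6. For genes whose log2 fold change changed sign on leaving out a line, the range was −0.22 to 0.034 for FGF11 in the first batch, and, for IL-1β against control in the second, −0.51 to 0.35 for FGF1, −0.37 to 0.11 for FGF22 and −0.26 to 0.56 for FGFRL1. For IL-1β + IL1Ra against control it was −0.35 to 0.26 for FGF22, −0.46 to 0.62 for FLRT3, −1.13 to 0.11 for GPC4 and −0.54 to 0.16 for HSPG2. Against IL-1β alone it was −0.19 to 0.040 for ETV1, −0.15 to 0.32 for ETV4, −0.44 to 0.74 for FGF13, 0.65 to 0.84 for FGF21 (−0.05 with all lines), −0.025 to 0.49 for FGF22, −0.47 to 0.15 for FGFR4, −0.14 to 0.36 for GPC3, −0.34 to 0.97 for GPC4 and −0.31 to 0.38 for HSPG2. Scaling to library sums also turned FGFRL1 to −0.069 (IL-1β against control, second batch), FGF22 to −0.068 (IL-1β + IL1Ra against control) and FGF21 to 0.049 (against IL-1β alone), and a pseudocount of 5 turned FGF13 to 0.0005, FGF21 to 0.10 and FGFR4 to −0.053 in the last. None of these had been called.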
